A study of Cavia porcellus with 12 samples.

Results

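This report covers the microRNAs (miRNAs) of isolated guinea pig ventricular cardiomyocytes after 22 h of exposure to 10 µM doxorubicin (DOX), set against the same exposure for 1 h. DOX is an anthracycline used against cancer that damages heart muscle. The members are the 2369 of 4979 entries of the deposited table for DOX 22 h and DOX 1 h whose mean was above 0. Of these, 2325 were a sequence listed under a human miRNA precursor, 15 carried only a human mature name, and 29 were predicted miRNAs. The sequence entries were grouped by precursor and by arm, the 5′ or 3′ strand of the hairpin (5p and 3p), which gave 427 arms of 287 precursors.

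The cells came from adult female Hartley guinea pigs, were freed with enzymes on a Langendorff perfusion system, and were kept at room temperature. Both groups, DOX 22 h and DOX 1 h, received the same dose and differed in the time of exposure, so time in culture and time in DOX cannot be told apart between them. The labels gave 3 libraries to each group, C1 to C3, among the 12 samples of the series. The means of the table, however, held only 1 library per group. Every mean was a whole multiple of 0.0630, which is the pattern given by reads of 2 libraries with the size factors 0.882 for DOX 22 h and 1.13 for DOX 1 h. All 29 predicted miRNAs of the table were named after the libraries C1DOXO22H and C1DOXO1H, which match the labels of replicate 1. A second deposited table holds the same DOX 22 h library beside a vehicle library at 22 h (DMSO). The reads of that vehicle library are set beside the others. It differs from DOX 1 h in both drug and time. Its ratio to DOX 1 h is therefore no control for time in culture alone. The DMSO 1 h libraries of the series were not used. With 1 library per group there was no replicate check, no test was made, and the intervals below are exact 95% binomial intervals that cover counting error only.

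Reads of each library were solved from the means, and an entry was used for a comparison only where a single pair of read counts was possible. This held for 1788 entries, with 476297 reads in DOX 22 h and 626032 in DOX 1 h, but these hold only 9.09% of the summed means, because no mean above 7112 had a single solution. The composition below therefore rests on all entries, while the shifts rest on solved entries, and the share of a mean that was solved is given for the results that turn on it. DMSO 22 h values cover only entries listed in both tables. The second table, which was used to solve entries, held no mean under 10.0, so scarce forms that are low in both 22 h libraries were solved less often than scarce forms that are high there. Fewer cells of a type and less RNA per cell cannot be told apart in such libraries.

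MiRNAs are short RNAs cut from hairpin precursors. One arm usually enters an Argonaute protein and guides it to matching messenger RNAs, and the other arm is usually degraded. Pairing rests mainly on the seed near the 5′ end of the miRNA, so members of a family that share a seed can act on the same targets. In heart muscle miR-1 and miR-133 control growth and conduction, and miR-208a, miR-208b and miR-499 lie in introns of myosin heavy chain genes and act on the choice of myosin.

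The entries were 12 to 21 bases long, and 59.8% of the summed means stood in sequences of 20 bases. The leading entries began a few bases downstream of the 5′ ends under which these miRNAs are commonly listed, so the seed could not be read from them by position. The first 6 bases of each entry are in capitals below instead. Families were taken from a fixed list, not from these bases. Its precursors share a seed or a locus, except that mir-142, mir-150 and mir-223 were grouped as blood cell miRNAs. The first set shows the most abundant entry of the arms that make up most of the heart muscle and vessel-wall signal.
mir-1-1 3p: GAATGTaaagaagtatgtat
mir-133a-2 3p: GGTCCCcttcaaccagctgt
mir-499a 5p: AAGACTtgcagtgatgttt
mir-208a 3p: AAGACGagcaaaaagcttgt
mir-208b 3p: TAAGACgaacaaaaggtttg
mir-143 3p: AGATGAagcactgtagctct
mir-126 3p: GTACCGtgagtaataatgcg

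The second set shows members of let-7 and of mir-15/16, families in which all or most 5p arms lay on 1 side of 0 between the libraries. Each family has the same first 6 bases and differs after them.
let-7a-1 5p: AGGTAGtaggttgtatagtt
let-7c 5p: AGGTAGtaggttgtatggtt
let-7e 5p: AGGTAGgaggttgtatagtt
let-7g 5p: AGGTAGtagtttgtacagtt
mir-15b 5p: GCAGCAcatcatgatttaca
mir-16-1 5p: GCAGCAcgtaaatattggcg
mir-497 5p: GCAGCAcactgtggtttgt

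The third set shows the leading entries of the 6 arms that differed at least 2-fold between the libraries. Those of mir-410, mir-370 and mir-411 come from 1 imprinted cluster, and no 2 of the 6 begin with the same 6 bases.
mir-17 3p: TGCAGTgaaggcacttgta
mir-410 3p: TATAACacagatggcctgt
mir-370 3p: CTGCTGgggtggaacctggt
mir-411 3p: TGTAACacggtccactaac
mir-27a 5p: GGCTTAgctgcttgtgagca
mir-150 5p: TCCCAAcccttgtaccagtg

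A few arms made up most of the miRNA signal. The 5 most abundant arms held more than 50% of the summed means and 35 arms held more than 90%, while the median arm had a summed mean of 106.6. The highest was mir-143 3p with 19.5%, an arm best known from smooth muscle. It was followed by the muscle miRNAs mir-1-2 3p with 11.6%, mir-1-1 3p with 10.5% and mir-499a 5p with 8.04%, and by both copies of mir-133a 3p with 3.27% each. The mir-1 family as a whole held 22.2%, mir-499 8.08% and mir-133 6.66%, against 0.172% for mir-208. Next came mir-126 3p, the endothelial miRNA, with 2.92%, mir-27b 3p with 2.64% and mir-30a 5p with 2.48%. The mir-30 family held 6.15%, let-7 4.90%, mir-26 4.47% and mir-24 3.91%.

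**Figure D1:**
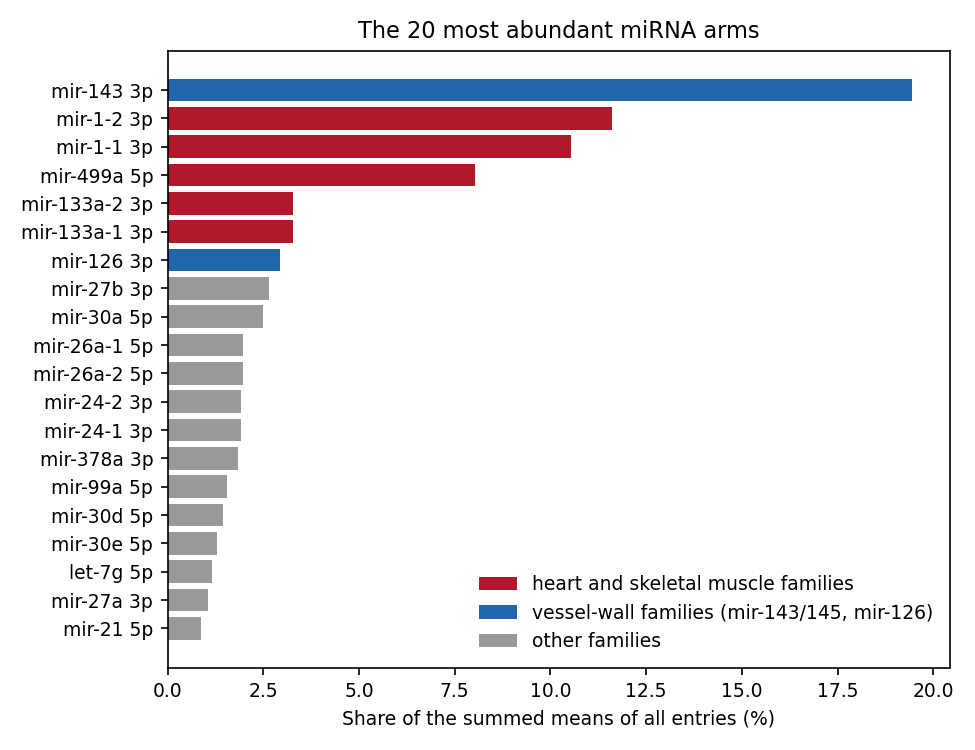
Share of the summed means over all entries (horizontal axis, percent) for the 20 most abundant arms, 1 bar per arm, coloured by family class. These arms hold 81.2% of the signal, with mir-143 3p at 19.5% and the muscle arms of mir-1, mir-499 and mir-133 next.

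These shares depend on how a sequence with several precursors is counted. Of 2010 different sequences, 247 were listed under more than 1 precursor, such as the copies of mir-1 and mir-133a, and they hold 44.5% of the means of the sequence entries. With each sequence counted once, the muscle families mir-1, mir-206, mir-133, mir-208 and mir-499 together held 30.0% of the sequence entries' means instead of 37.4%, and mir-143 with mir-145 held 25.6% instead of 19.996%. On that count the mir-1 family held 15.01% and stood below mir-143 with mir-145, whereas it stood above them when every listing was counted.

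The labelled cell type was checked against marker miRNAs, with each sequence counted once. All 7 cardiomyocyte precursors had entries, and together they held 30.0% of the signal. The smooth muscle and pericyte markers mir-143 and mir-145 held 25.6%, and the endothelial marker mir-126 held 4.18%. The fibroblast precursors mir-199a-1, mir-199a-2, mir-199b and mir-214 held 0.157%, red blood cell markers 0.0291% and white blood cell markers 0.0112%. Epithelial markers held 0.0461%, almost all of it mir-203a 3p, with no entry for mir-141, mir-205 or mir-375. Neuronal markers held 0.00277%, with no entry for mir-124-1 or mir-124-3, and the liver marker mir-122 had none. Markers of vessel walls were thus present at a level near that of the cardiomyocyte markers, and their part in the shifts was not tested.

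The marker lists differed from each other in their shift. Solved fibroblast entries, 99.2% of that list, had 6368 reads in DOX 22 h and 8197 in DOX 1 h, a scaled log2 ratio of 0.00 (95% interval -0.05 to 0.05). The scaled ratio takes into account that a read in DOX 22 h stands for 9 parts and a read in DOX 1 h for 7 parts of the mean. Red blood cell entries, 99.8% solved, had 961 and 1833 reads, a log2 ratio of -0.57 (interval -0.68 to -0.46). That list was the only marker list with an interval wholly below 0, and the DMSO 22 h library stood at -0.17 against DOX 1 h. White blood cell entries, 77.3% solved, had 385 and 420 reads, a log2 ratio of 0.24 (interval 0.03 to 0.44). Its arms were split. mir-142 5p stood at 0.68, mir-142 3p at 0.18 and mir-155 5p at 0.26, while mir-223 3p stood at -0.79 and mir-150 5p at -1.11. For cardiomyocyte and smooth muscle markers only 1.31% and 1.08% of the means were solved, so their totals could not be compared between the libraries.

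Within most precursors 1 arm was far more abundant than the other. Among 140 precursors with both arms listed, the median ratio between the arms' means was 26.3, and in 38 precursors it passed 100. The 5p arm was the higher one in 85 precursors and the 3p arm in 55. In 28 precursors the arms were within 3-fold of each other, among them mir-208a, whose 3p arm had a mean of 2098 and whose 5p arm had 1118. The same held for mir-140, best known from cartilage, with 5235 in the 3p arm and 2838 in the 5p arm, and for mir-132 with 339.8 in the 3p arm and 326.1 in the 5p arm.

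Most of the signal of an arm began at a single base. Entries at the leading start of their arm held 96.5% of the means, those starting 1 base upstream 2.16% and those starting 1 base downstream 1.30%. Entries that differed by a base from the leading entry of their arm numbered 351 and held 11.4%. Most of that share came from miR-1, which was listed in a pair of forms that differ at position 15, counted from 1 at the 5′ end of the entry (A15G). The difference is in capitals.
mir-1-1 3p, leading form: gaatgtaaagaagtAtgtat
mir-1-1 3p, A15G form: gaatgtaaagaagtGtgtat

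Under mir-1-1 the A15G form had a mean of 262848 and the leading form 351995, so that A15G entries held 41.5% of the arm. Under mir-1-2 the A15G entries held 41.9% of the arm. At 15 and 16 bases, where position 15 is still included, mir-1-1 had entries with A at means of 124.4 and 1269, and none with G. At 18 bases the form with A had a mean of 16434, and the 2 entries with A15G, each with a second difference, had means of 5.73 and 9.89. The abundant A15G entries had 76 possible pairs of reads at 20 bases, so whether this form differed between the libraries could not be measured. In mir-16-1 5p, C19T forms held 40.8% of the arm, and in mir-652 3p an A20T form held 46.0%. Those differences lie at the 3′ end of the entry.

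Between the 2 libraries, arms were compared where at least 50 solved reads were found in both together, which held for 291 of 427 arms. The median log2 ratio of these arms was 0.00, with quartiles at -0.21 and 0.20, so the libraries were centred on each other. Spread grew as reads fell. The SD of the log2 ratio over arms was 0.23 for the 139 arms with at least 1000 reads, 0.36 for the 68 with 200 to 1000 reads and 0.58 for the 84 with fewer. In 179 of the 291 arms at least 90% of the mean was solved, and in 49 arms less than 50%.

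**Figure D2:**
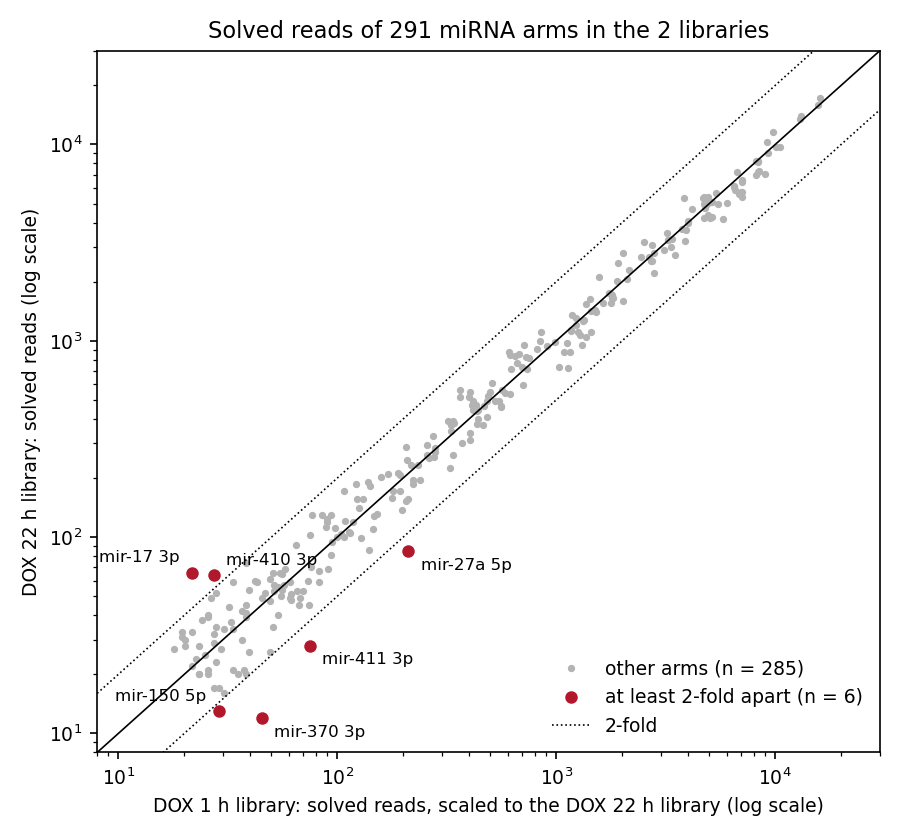
Solved reads of 291 arms in the DOX 22 h library (vertical axis, log scale) against the DOX 1 h library scaled to the same depth (horizontal axis, log scale), 1 point per arm, with lines at equality and at 2-fold. The 6 arms past 2-fold are named, and 5 of them have under 130 reads in all.

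At least 2-fold differences were rare. In DOX 22 h 2 arms were at least 2-fold higher, which is 0.687% of the arms compared, and 4 arms were at least 2-fold lower, which is 1.37%. The highest ratio belonged to mir-17 3p, from the growth-promoting mir-17-92 cluster. It had 66 reads in DOX 22 h, 28 in DOX 1 h and 17 in DMSO 22 h, a log2 ratio of 1.58 (interval 0.94 to 2.29) with 91.1% of its mean solved. Its library after 22 h of DOX was thus above both others. The 5p arm of the same precursor had 172 and 232 reads and a log2 ratio of -0.07.

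The other arm past 2-fold upward was mir-410 3p, of the imprinted DLK1-DIO3 locus. It had 64 reads in DOX 22 h, 35 in DOX 1 h and 37 in DMSO 22 h, a log2 ratio of 1.22 (interval 0.62 to 1.87), all from the entry printed above. The DMSO 22 h library was at 0.61 against DOX 1 h on the same scale.

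Of the 4 arms past 2-fold downward, mir-370 3p and mir-411 3p also come from the DLK1-DIO3 locus. mir-370 3p had 12 reads in DOX 22 h, 58 in DOX 1 h and, over the entry also listed in the second table, 18 in DMSO 22 h, a log2 ratio of -1.86 (interval -2.94 to -0.998). On the entry listed in both tables DOX 22 h had 12 reads and DOX 1 h had 39, a log2 ratio of -1.30, and the other 3 entries had reads in DOX 1 h only. mir-411 3p had 28 reads in DOX 22 h and 96 in DOX 1 h, a log2 ratio of -1.40 (interval -2.08 to -0.79). On its entry listed in both tables the reads were 21, 78 and, in DMSO 22 h, 33. DMSO 22 h was also below DOX 1 h in both, at -0.56 for mir-370 3p and -0.70 for mir-411 3p.

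The most reads among the 4 were those of mir-27a 5p, the minor arm of mir-27a, which the study also followed by RT-qPCR. It had 85 reads in DOX 22 h, 271 in DOX 1 h and 88 in DMSO 22 h, a log2 ratio of -1.30 (interval -1.68 to -0.95) with 96.1% of its mean solved. The DMSO 22 h library stood at -1.08 against DOX 1 h, close to DOX 22 h, so this arm was low in both 22 h libraries. Its leading entry alone had 41, 191 and 51 reads. The main arm, mir-27a 3p, had 287 and 265 reads and a log2 ratio of 0.48, but only 0.438% of its mean was solved. The fourth arm was mir-150 5p, a lymphocyte miRNA on the white blood cell list that stood higher as a whole, with 13, 37 and 17 reads, a log2 ratio of -1.11 (interval -2.18 to -0.20) and 68.7% of its mean solved.

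Outside these, the largest ratios upward were mir-490 5p at 0.95, mir-185 3p at 0.89, mir-222 3p at 0.88, mir-200b 3p at 0.81, mir-1296 at 0.77, let-7f-2 3p at 0.76, mir-142 5p at 0.68 and mir-4324 at 0.67. Each had between 56 and 310 solved reads in both libraries together, and the solved share ran from 47.8% for mir-185 3p to 100%. The intervals of let-7f-2 3p and mir-4324 held 0. The largest downward were mir-212 3p at -0.91, mir-409 3p and mir-1277 at -0.90, mir-130b 5p at -0.81, mir-223 3p at -0.79 and mir-379 3p at -0.74. The solved share was 35.7% for mir-223 3p and 70.1% for mir-212 3p, and on entries listed in both tables these stood at -0.29 and -0.49. The interval of mir-379 3p held 0. Among the 97 arms with at least 1000 reads and at least 90% of the mean solved, 46 were higher and 51 lower in DOX 22 h, and the extremes were mir-486-1 5p at -0.64 and mir-210 3p at 0.62.

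By family, reads were summed over the arms with each sequence counted once. None of 38 families differed 2-fold. Their counting intervals lay above 0 in 15 families, below 0 in 13 and held 0 in 10. In 15 families at least 90% of the mean was solved, of which 7 lay above 0, 4 below and 4 held 0. Of the other 23 families, which include nearly all abundant ones, 19 had less than 50% of the mean solved and 4 had more.

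**Figure D3:**
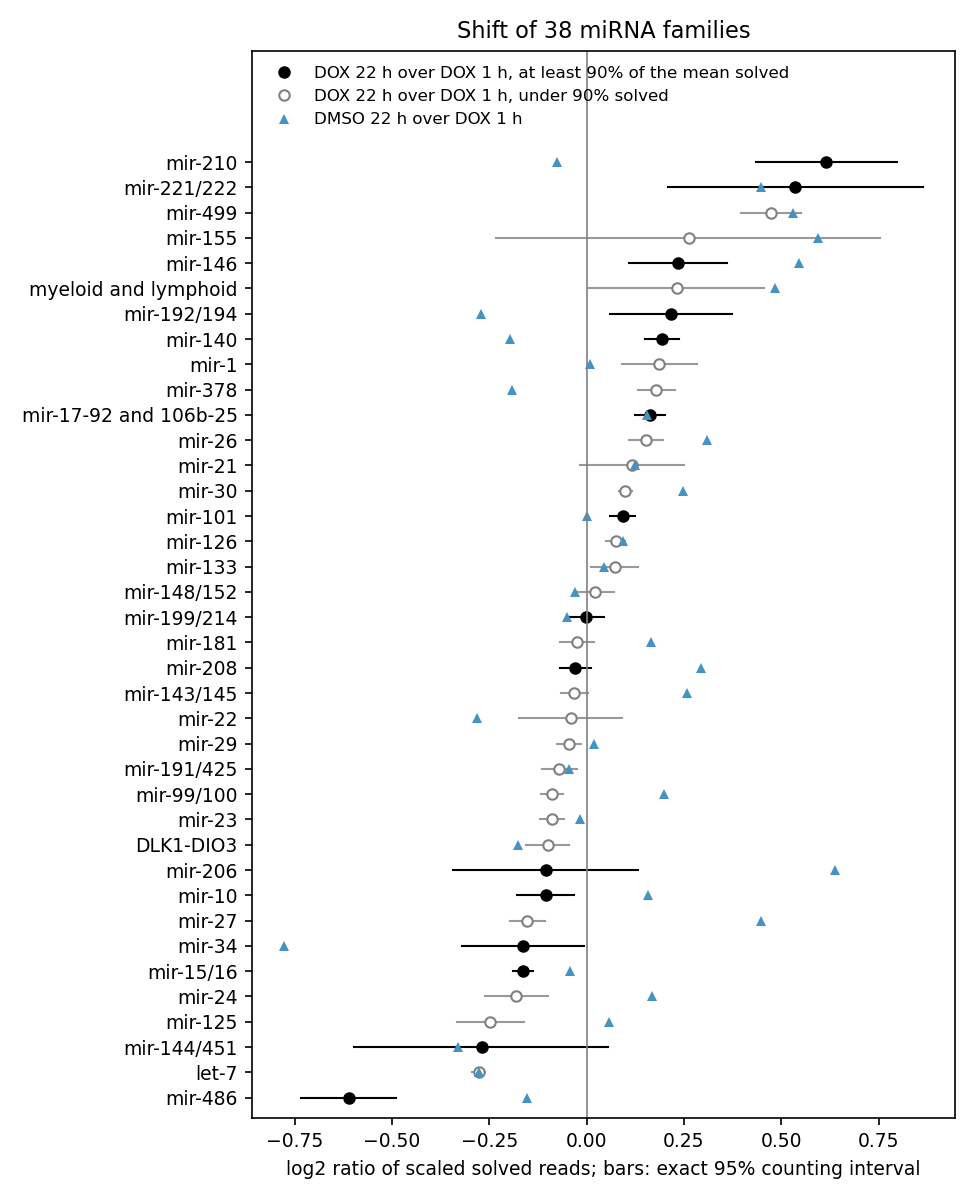
Log2 ratio of scaled solved reads for 38 families (horizontal axis) with exact 95% counting intervals, DOX 22 h over DOX 1 h as circles and DMSO 22 h over DOX 1 h as triangles. Filled circles mark families with at least 90% of the mean solved, which run from mir-486 at -0.61 to mir-210 at 0.62, and the triangle of mir-210 lies at -0.08.

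The muscle families mir-499, mir-1 and mir-133 had intervals above 0, with 2.16% of the mean or less solved. For mir-133 the ratio was 0.07 (interval 0.01 to 0.13). The intervals of mir-208, at -0.03 (-0.07 to 0.01), and of mir-206 held 0. Single arms lay on both sides of 0. In mir-499a, whose host gene encodes a slow myosin, the 3p arm was 99.6% solved and had 2791 reads in DOX 22 h, 2584 in DOX 1 h and 2584 in DMSO 22 h. That is a log2 ratio of 0.47 (interval 0.40 to 0.55), beside 0.53 for DMSO 22 h, so both 22 h libraries were higher. The abundant 5p arm had only 28 and 26 solved reads, 0.00566% of its mean, and its interval ran from -0.35 to 1.30.

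The myosin-encoded pair mir-208a and mir-208b moved apart. mir-208a 3p had 2105 reads in DOX 22 h, 2022 in DOX 1 h and 2202 in DMSO 22 h, a log2 ratio of 0.42 (interval 0.33 to 0.51). mir-208b 3p had 5854, 8439 and 7254 reads, a log2 ratio of -0.17 (interval -0.21 to -0.12). Their 5p arms stood at 0.00 and -0.11. The DMSO 22 h library was higher than DOX 1 h for both 3p arms, by 0.66 for mir-208a and 0.31 for mir-208b on the log2 scale.

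In mir-133, mir-133b 3p had 954 reads in DOX 22 h and 915 in DOX 1 h, a log2 ratio of 0.42 (interval 0.29 to 0.56), while DMSO 22 h stood at -0.19. The 5p arms of mir-133a-1 and mir-133a-2, both at least 99.7% solved, stood at 0.02 and -0.07. The 3p arms of mir-133a stood at -0.25 and 0.07 for mir-133a-1 and mir-133a-2 on 0.118% and 0.196% of their means, and both intervals held 0. In mir-1, short forms with 0.25% of the family's mean gave 0.19 (interval 0.09 to 0.28), and mir-206 3p, the skeletal muscle relative, gave -0.10 with an interval from -0.34 to 0.13.

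The let-7 family, which restrains growth genes and is abundant in adult tissue, was lower in DOX 22 h in its guide arms. The 5p arm was lower in 12 of 12 precursors, with a median log2 ratio of -0.29 and a range from -0.48 to -0.11, and each of these 12 intervals lay below 0. In 8 of the 12 less than 50% of the mean was solved, from 5.12% in let-7g 5p to 33.7% in let-7a-3 5p, so these rest on minor forms. At least 90% was solved in 4, let-7b, let-7c, let-7e and mir-98. let-7c 5p had 5428 reads in DOX 22 h and 9049 in DOX 1 h (log2 ratio -0.37), and let-7e 5p had 4161 and 7441 (log2 ratio -0.48). let-7b 5p had 4229 and 6464 reads (log2 ratio -0.25), and mir-98 5p had 979 and 1442 (log2 ratio -0.20). DMSO 22 h was also lower than DOX 1 h in 11 of 12, with a median of -0.32, so the guide arms were low in both 22 h libraries. let-7i 5p was the one above DOX 1 h in DMSO 22 h, at 0.10. The copies let-7a-1, let-7a-2 and let-7a-3 share sequences, as do the copies of let-7f, so these 12 arms are fewer than 12 separate measurements.

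The 3p arms of let-7 did not follow. Of 11 compared, 9 were higher and 2 lower in DOX 22 h, with a median of 0.05 and a range from -0.14 to 0.76, and 1 interval lay above 0, that of let-7i 3p (838 and 830 reads, log2 ratio 0.38). Across all arms compared, 57 of 139 5p arms were higher, with a median of -0.07, and 81 of 139 3p arms were higher, with a median of 0.04.

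In mir-15/16, a family that slows the cell cycle, 6 of 7 5p arms were lower. mir-15b 5p had 5011 reads in DOX 22 h, 7766 in DOX 1 h and 5020 in DMSO 22 h, a log2 ratio of -0.27 (interval -0.32 to -0.22). DMSO 22 h stood at -0.10 against DOX 1 h for mir-15b 5p once scaled. mir-16-1 5p stood at -0.21, mir-15a 5p at -0.19, mir-424 5p at -0.10 and mir-195 5p at -0.09. Over the 7 5p arms DMSO 22 h was above DOX 1 h in 3 and below it in 4, with a median of -0.10. mir-497 5p went the other way with 1103 and 1099 reads, a log2 ratio of 0.37 (interval 0.25 to 0.49), although mir-497 and mir-195 share a locus. DMSO 22 h stood at -0.34 for mir-497 5p, so the 2 libraries at 22 h lay on opposite sides of DOX 1 h.

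The lowest family was mir-486, which is abundant in red blood cells and muscle and was solved in full. mir-486-1 5p had 729 reads in DOX 22 h, 1460 in DOX 1 h and 883 in DMSO 22 h, a log2 ratio of -0.64 (interval -0.77 to -0.51). The DMSO 22 h library lay between, at -0.19. The red blood cell miRNA mir-451a 5p was lower too, with 110 and 188 reads and a log2 ratio of -0.41 (interval -0.76 to -0.06). On its entries listed in both tables DOX 22 h stood at -0.34 and DMSO 22 h at -0.41. Within the same list mir-144 5p went the other way, with 20 and 7 reads and a log2 ratio of 1.81 (interval 0.58 to 3.36), below the minimum of 50 reads. The red blood cell list moved with mir-486, which is one of its members, and its part was not tested.

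The highest family was mir-210, a miRNA induced by low oxygen. mir-210 3p had 558 reads in DOX 22 h, 468 in DOX 1 h and 299 in DMSO 22 h, a log2 ratio of 0.62 (interval 0.44 to 0.80) with 97.8% of its mean solved. DMSO 22 h was at -0.08, so mir-210 3p was high in DOX 22 h and near DOX 1 h in DMSO 22 h. A like pattern was seen in mir-140 3p, with 5360 reads in DOX 22 h and 4926 in DOX 1 h (log2 ratio 0.48) and DMSO 22 h at 0.08. The 5p arm of mir-140 had 2215 and 3589 reads and a log2 ratio of -0.33, so its arms moved apart.

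In mir-221 and mir-222, vascular miRNAs that promote growth, both 3p arms were higher. mir-221 3p had 119 reads in DOX 22 h and 115 in DOX 1 h (log2 ratio 0.41), and mir-222 3p had 49 and 34 (log2 ratio 0.88). On entries listed in both tables DOX 22 h stood at 0.52 and 0.92 and DMSO 22 h at 0.44 and 0.48, so both 22 h libraries were above DOX 1 h. The clusters mir-17-92 and mir-106b-25 were grouped with related precursors outside them, among them mir-106a, mir-19b-2 and mir-92a-2. This group, 98.8% solved, stood at 0.16 (interval 0.13 to 0.20), with 10 of 14 arms higher. mir-19b-2 3p at 0.45 and mir-106b 5p at 0.33 were among the higher, and mir-20a 5p at -0.25 was the lowest. DMSO 22 h stood at 0.15 for this group.

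The miRNAs tied to the DNA damage factor p53 were mixed. mir-34a 5p had 538 reads in DOX 22 h, 790 in DOX 1 h and 309 in DMSO 22 h, a log2 ratio of -0.19 (interval -0.35 to -0.03), while DMSO 22 h stood at -0.81. At 22 h this arm was therefore higher with DOX than with DMSO and lower than after 1 h of DOX. mir-194-2 5p stood at 0.20 (473 and 530 reads) and mir-192 5p at 0.35 (157 and 158 reads, 80.3% solved). mir-194-1 5p stood at -0.17 (158 and 229 reads) with an interval from -0.47 to 0.13. DMSO 22 h stood at -0.51 for mir-194-2 5p, 0.37 for mir-192 5p and -0.32 for mir-194-1 5p. mir-34c 5p, 46.0% solved, had 27 and 23 reads with an interval from -0.26 to 1.46.

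Several well solved families were near 0. mir-101, which restrains a chromatin methyltransferase, stood at 0.09 (interval 0.06 to 0.13) with 14010 and 16890 reads. The family of mir-199 and mir-214, found in fibroblasts, stood at 0.00 and its 8 arms ran from -0.18 to 0.32. mir-10 stood at -0.10 (interval -0.18 to -0.03). Among the other miRNAs the study followed by RT-qPCR, mir-99b 5p had 4225 reads in DOX 22 h, 6107 in DOX 1 h and 6109 in DMSO 22 h, a log2 ratio of -0.17 (interval -0.23 to -0.11), with DMSO 22 h at 0.54. The 5p arms of mir-181a-1 and mir-181a-2 were solved for 27.8% and 28.0% of their means and stood at 0.00 and 0.03, with both intervals holding 0.

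The imprinted DLK1-DIO3 cluster, a large group of miRNAs on 1 chromosome arm, stood at -0.10 (interval -0.16 to -0.04) with 79.1% solved. Of its 46 arms 22 could be compared, 9 of them higher and 13 lower. Of the 22, 1 was at least 2-fold higher and 2 at least 2-fold lower, against 0.687% and 1.37% of all arms compared. Its abundant arms varied less, with mir-379 5p at -0.11 (1660 and 2302 reads) and mir-381 3p at 0.11 (525 and 626 reads). mir-411 5p, 39.5% solved, stood at -0.24 (596 and 906 reads, interval -0.39 to -0.09). mir-487b 3p, with 153 and 265 reads, stood at -0.43 (interval -0.73 to -0.14).

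Both arms could be compared in 84 precursors. In 40 of them the arms lay on opposite sides of 0, and in 5 they differed by 2-fold or more. These were mir-27a (5p minus 3p on the log2 scale, -1.78), mir-17 (-1.65), let-7f-2 (-1.10), mir-411 (1.16) and mir-148a (1.22). In the last 4 of these at least 1 arm had 124 solved reads or fewer, while mir-27a had 356 in the 5p arm and 552 in the 3p arm. The 3p arm of mir-148a was solved for 0.126% of its mean.

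**Figure D4:**
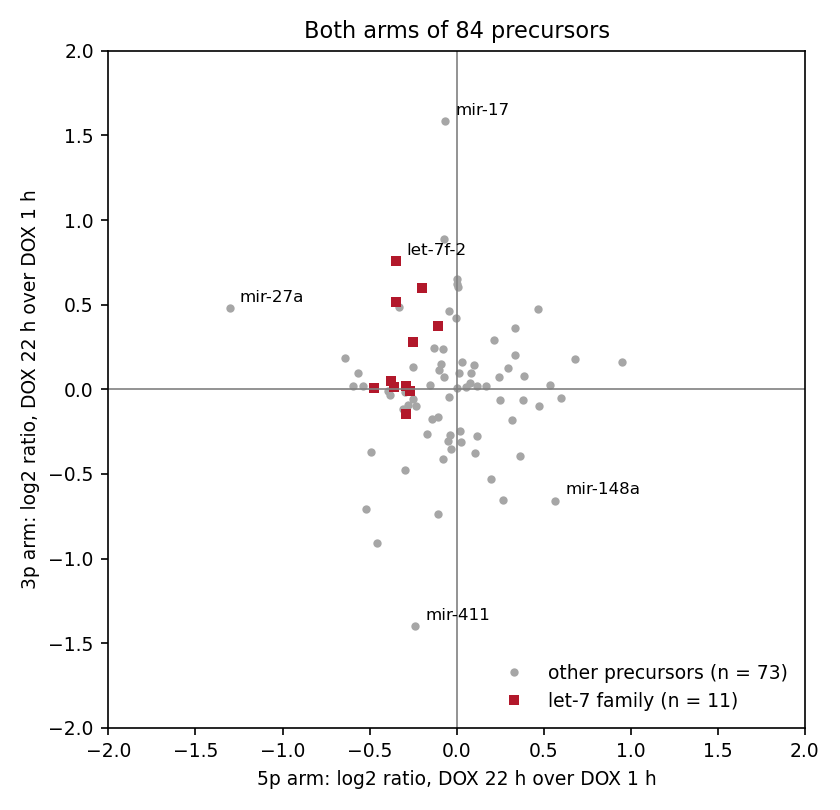
Log2 ratio of the 3p arm (vertical axis) against that of the 5p arm (horizontal axis), DOX 22 h over DOX 1 h, 1 point per precursor for 84 precursors. The 11 let-7 precursors, as squares, all lie left of 0 on the 5p axis and spread from -0.14 to 0.76 on the 3p axis, and the 5 precursors with arms 2-fold apart are named.

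Shorter forms were relatively more frequent in DOX 22 h than in DOX 1 h, and no DMSO 22 h value was taken for the length classes. Solved sequences of 12 to 15 bases had 1587 reads in DOX 22 h and 1374 in DOX 1 h, a log2 ratio of 0.57 (interval 0.47 to 0.68). Those of 16 to 18 bases stood at 0.08 (interval 0.07 to 0.10) and those of 19 to 21 bases at -0.05 (interval -0.06 to -0.05). Among the most abundant short forms, the 14-base entry of mir-1-1 had 326 reads in DOX 22 h, 209 in DOX 1 h and 211 in DMSO 22 h. The 14-base entry of mir-126 3p had 134, 80 and 132 reads. These reads are unscaled. Once scaled, both 14-base entries were above DOX 1 h in DMSO 22 h as well, so their rise was not particular to DOX 22 h. Not every short form followed, since the 15-base entry of mir-125b-2 5p had 51, 102 and 103 reads. The solved reads of mir-1 lie almost wholly in forms of 14 to 16 bases. In mir-1-1 the 16-base entry had 1126 reads in DOX 22 h and 1430 in DOX 1 h, close to equal once scaled. The 15-base entry had 123 and 124. Most of the shift of mir-1 thus lies in its entries of 14 and 15 bases.

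Rare arms, with a summed mean under 10, numbered 68 or 15.9% of all arms and held 0.00558% of the means. They were 34 3p arms, 24 5p arms and arms of hairpins without a named strand, and 12 of them came from the DLK1-DIO3 locus. That locus held 46 of all 427 arms. In 36 the rare arm was the only one listed for its precursor, and in 14 it was the partner of an arm with a mean above 100. Among the latter were mir-26a-1 3p with a mean of 1.89 beside 118198 for its 5p arm, mir-25 5p with 2.205 beside 1625 for its 3p arm, and mir-29b-1 5p with 5.10 beside 615.2.

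All entries were solved in 43 of the 68 rare arms. Of these 27 had reads in both libraries, 7 only in DOX 22 h and 9 only in DOX 1 h. A single library therefore held the arm in 16 cases, with at most 8 reads each. That ceiling was set by the solving. A rare entry had a single solution only with at most 6 reads in DOX 22 h and at most 8 in DOX 1 h. Rare arms with an entry above these limits fell among the 25 with an unsolved entry, so the split is not a result. mir-769 3p had 6 reads in DOX 22 h and none in DOX 1 h, and mir-660 3p had 3 and none. mir-668 3p had none in DOX 22 h and 8 in DOX 1 h, and mir-365a 5p had none and 6. At these depths a count of 0 still allows up to 3 reads, so absence from a library was not detectable. No share over all arms stands beside these counts, so they were not read as a trait of rare arms.

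The 10 most abundant rare arms were mir-654 5p, mir-96 5p, mir-378j, mir-3120, mir-30b 3p, mir-429 3p, mir-1306 3p, mir-190a 3p, mir-551b 3p and mir-592 5p, with means from 8.76 to 9.83. Of these only mir-654 5p (8 reads in DOX 22 h and 12 in DOX 1 h) and mir-378j (9 and 10) were solved in full. Among marker miRNAs, mir-200c 3p had 4 and 13 reads, mir-144 3p had 1 and 8, and mir-124-2 3p had 1 read in DOX 22 h and none in DOX 1 h. mir-429 3p had an unsolved entry. None of these stood for a cell type at a level above a few reads. The 3p arm of mir-99b, with a mean of 10.3, lay just above the limit.

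The scarcest entries were solved without exception, because no mean under 3.97 allows a second pair of reads. Of the 365 sequence entries with a mean under 3.97, 195 had reads in both libraries, 59 only in DOX 22 h and 111 only in DOX 1 h. Entries with 3, 4, 5 and 6 reads numbered 40, 15, 48 and 15 in DOX 22 h and 36, 19, 75 and 53 in DOX 1 h, so their number did not fall evenly with reads. The limit on the mean caps DOX 22 h at 6 reads and DOX 1 h at a higher count, so these counts and the split depend on it. The rule by which scarce entries came to be listed is not given in the sources used here, and no direction was read from them.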

How the data were processed

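The authors aligned small RNA reads (TruSeq libraries, HiSeq) to human sequences, per the labels hg19, normalized them and compared groups with DESeq2. The mean used here is a signal deposited by the authors, reads divided by size factors and averaged over both libraries. In the second deposited table (DOX and DMSO at 22 h) the means had lost their decimal mark, and the other scale was restored from the same entry of the first. The columns of the authors' comparisons (fold change, error, p-value, fitted levels) were not used.

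Each mean was written as whole reads of 2 libraries (terms up to 1000). Of 4 assignments, 1 solved all 1323 shared entries and the others 202 to 348. On simulated data 1324 of 1324 entries with 1 solution were right. The simulated means were built from the same kind of whole-number weights, so this checks the solving code only and not the fit of the deposited means. Starts over 15 bases apart were different arms, and a lone arm starting before base 38 was 5p. Ratios used 0.5 added reads. Arms named were the 20 most abundant, the leading arm of each family, arms past 2-fold, the 10 largest ratios each way, the miRNAs of the RT-qPCR and, of rare arms, the 10 most abundant and markers; other arms named were chosen after their values were seen. Members and lists were chosen with earlier results of these data known. Depth per library is unknown beyond the solved reads, and human alignment may lose guinea pig differences. Python 3.11.15, numpy 2.4.6, pandas 2.3.3 and scipy 1.17.1 were used.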

Additional observations from a re-analysis of the deposited data

Results flagged for a closer look

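Entries named as predicted miRNAs lay outside the arms compared, and those of 3 names drew attention as a signal above the 3 reads that a count of 0 allows. There were 29 under 9 names, with 0.872% of all means, and 10 of the 20 that list a sequence repeat a sequence listed under a human precursor. The highest, an entry for predicted miRNA 266 with no sequence of its own, had a mean of 27161, and the sequences listed under that name are those of mir-21 5p. The entry without a sequence for predicted miRNA 218 had a mean of 154.6, and the sequences under that name repeat those of mir-9 5p. That for predicted miRNA 374 had a mean of 68.8, and most entries under that name repeat sequences of mir-155 5p.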

How the results depend on the processing

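No paired analysis was possible because each group had 1 library, and for the same reason no replicate could be left out. The count of arms at least 2-fold higher (2) became 5 with the most likely of several solutions, 10 with a minimum of 10 reads, 0 with a minimum of 200 reads and 18 at 1.5-fold. The count at least 2-fold lower (4) became 9, 1 and 16 under the last 3 of these. Among arms with at least 90% of the mean solved, a limit added after seeing the data, the counts were 2 and 3. Families with an interval above 0 (15) became 6 with the most abundant entry of each arm, which is the setting that moved families most: 28 of 36 kept their sign and 18 stayed within their interval. Scaling by summed reads kept the sign in 34 of 38, and the most likely of several solutions in 31 of 38. Centring on the median, 1 added read and, chosen after seeing the data, counting a sequence under every precursor kept it in 38 of 38. No arm past 2-fold changed sign where an alternative gave it a value. The muscle families' share (37.4%) was 40.1% with the most abundant entry of each arm and 30.0% with each sequence counted once, and that of mir-143 with mir-145 (19.996%) was 16.5% and 25.6%. Rare arms (68) were 37 at a limit of 5. Where an alternative moved a value, the cause was not tested beyond the fewer reads or entries it uses.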
